A study of Drosophila melanogaster with 3 samples.

Results

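The nuclear genes of respiratory complexes II, III, IV and V and of cytochrome c were compared between kep1 mutant and wild-type males of Drosophila melanogaster. Members were taken from a list of 35 FlyBase symbols, and a probe was counted as a member if its CG number in the scanner tables belonged to a listed gene. The arrays carried 31 of the 35 genes on 37 of 11744 probes, and 6 of the 31 genes had 2 probes. Absent from the probe names were UQCR-11 and RFeSP of complex III, COX6B of complex IV and ATPsynCF6 of complex V. The rule uses gene names alone, and all 37 probes passed the filter on low signal.

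The study hybridised 3 spotted 2-colour cDNA arrays. On each, RNA of homozygous mutants (kep1-/kep1-) was labelled with Cy5 in channel 2 and RNA of w1118 wild-type flies with Cy3 in channel 1. By the design text the RNA came from heads of males aged 3 to 4 days, with a separate RNA sample for each array. The source labels give the sex but not the heads. The kep1 allele, its genetic background and the number of flies behind an RNA sample were not given in the sources used here. Arrays are numbered here in the order of the records. The dyes were not swapped, so a dye effect particular to a probe and the genotype cannot be told apart, and neither can kep1 and any other difference between the strains.

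Each array gave a log2 ratio of mutant over wild type per probe. The kep1 probe, listed as qkr58E-3, had ratios of -1.59, -1.35 and -2.13 on arrays 1, 2 and 3, a mean of -1.69 ± 0.40 (SD, n = 3; limma adjusted p = 0.0726). Its foreground intensity was 253.6, 240.3 and 227.9 in the mutant and 851.7, 864.6 and 1343.1 in wild type. Taking the 95th percentile of blank spots as the limit of detection, this mutant signal lay above the blank spots on 1 array only, so the size of the ratio is uncertain. Tissue labels were checked on markers: all 10 photoreceptor markers lay above the blank spots in both channels on all arrays, as did 5 of 6 neuronal markers. Of 8 measured gut markers, 6 did so in the mutant channel and 7 in the wild-type channel, although the design text names heads. Of 12 measured testis and accessory gland markers, 8 did so in the mutant channel and 9 in the wild-type channel.

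The respiratory chain moves electrons from metabolic substrates to oxygen in the inner mitochondrial membrane and stores the energy as a proton gradient. Complex II (succinate dehydrogenase) feeds electrons from the citric acid cycle into ubiquinone, complex III passes them to cytochrome c, and complex IV (cytochrome c oxidase) hands them to oxygen. Complex V, the ATP synthase, lets protons flow back through a membrane rotor and makes ATP. Photoreceptors, neurons and muscle, all present in the fly head, are known for a high demand for ATP.

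The 31 genes stood slightly below the rest of the array in the mutant. Their median log2 ratio was -0.11, or 1.08-fold lower, against -0.0069 over all 9175 genes tested, each represented by its brightest probe. The mean ratio was below 0 for 27 of the 31 genes, and for 30 of the 37 probes (81.1%) against 51.2% of all probes. No member probe passed the test over all probes (limma, Benjamini-Hochberg adjusted p from 0.108 to 0.999), where 0.0766% of probes were called lower and 0.0681% higher. The limma 95% intervals of all 37 member probes lay within 2-fold in either direction. However, 13 of these probes did not exceed the blank spots in both channels on all arrays. Among them, 3 did so in neither channel on any array, so the intervals of dim probes carry little information. In bulk RNA, fewer cells of a type and less of a transcript per cell cannot be told apart.

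At an unadjusted p under 0.05, limma placed 6 of the 37 member probes (16.2%) lower in the mutant and none higher. Of all 11742 probes tested, 9.27% were lower and 6.24% higher by the same rule. The 6 probes were those of SdhD, Cyt-c1, levy, COX8, ATPsynC and ATPsyngamma, so complexes II, III, IV and V each had at least 1. The count changed with the background correction and the arrays used: it was 1 after plain background subtraction and 3 without array 3. It was 0 with the deposited log2 values, which have neither background subtraction nor an intensity-dependent correction. The share of all probes was higher among bright ones, with 5 of 25 member probes against 14.1% of all probes lower under a stricter filter on dim signal.

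The ratio lay below 0 on all 3 arrays for 16 member probes (43.2%), against 20.6% of all probes. It lay above 0 on all 3 arrays for 2 member probes (5.41%), against 18.4% of all probes. The members share libraries and mitochondria as their place of work, so these shares describe the list and carry no test. A dye effect that repeats across arrays would also give 1 sign on all of them, and its part in the result was not tested.

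**Figure D1:**
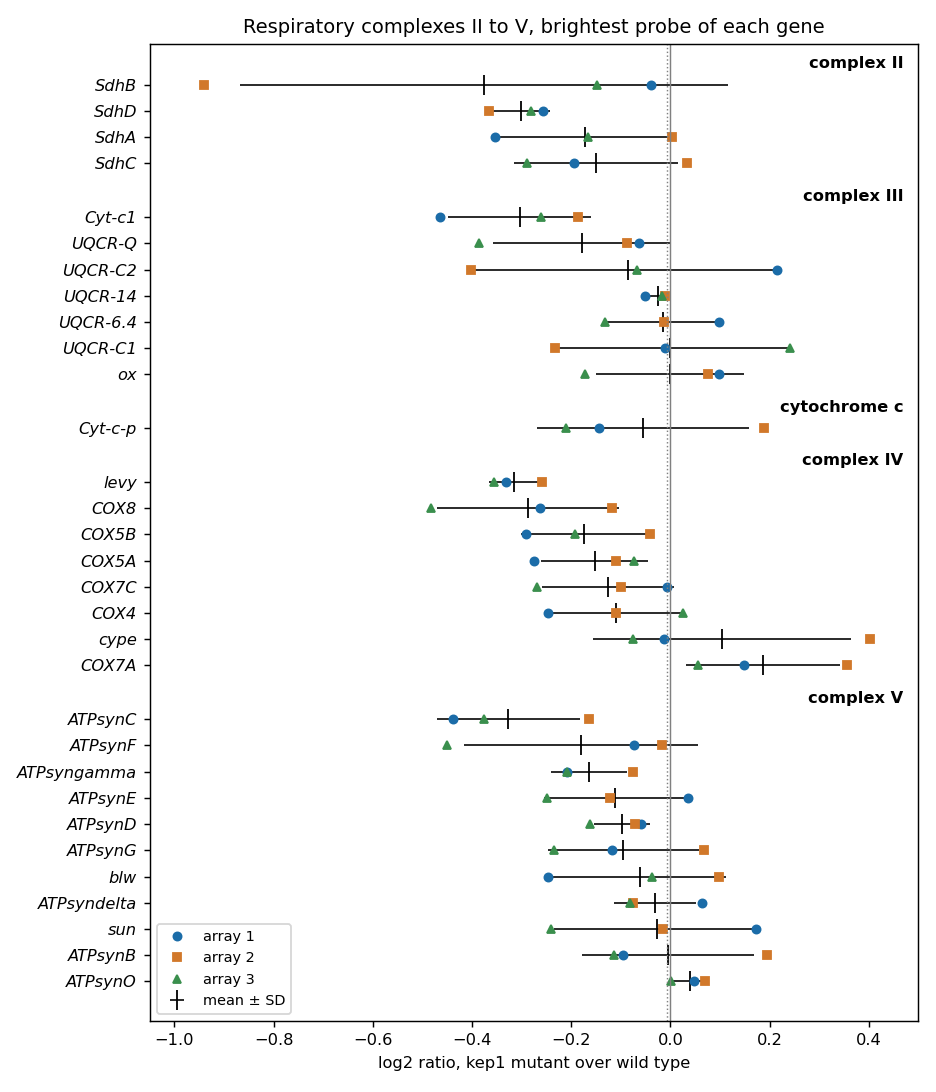
Log2 ratio of kep1 mutant over wild type (horizontal axis) for the brightest probe of each of the 31 genes, by complex; points are the 3 arrays, the vertical tick is the mean and the line spans 1 SD to each side. Most means lie between -0.38 and 0, and 15 of the 31 genes have points on both sides of 0.

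The spread of the members was compared with that of all genes. Gene means ran from -0.38 for SdhB to 0.19 for COX7A, with none beyond 0.5 in either direction. Of all genes, 3.67% lay at or below -0.5 and 99.0% at or below 0.5, so a list of 31 would hold few beyond these limits. Between -0.25 and 0.25 lay 25 of the 31 genes, a smaller share than the 85.3% of all genes. Below -0.25 lay 6 members (19.4%), against 9.94% of all genes, and above 0.25 lay none, against 4.77%. The SD over arrays had a median of 0.15 for the member probes and of 0.12 over all probes. Duplicate spots of a member probe on the same array differed by a median of 0.11.

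**Figure D2:**
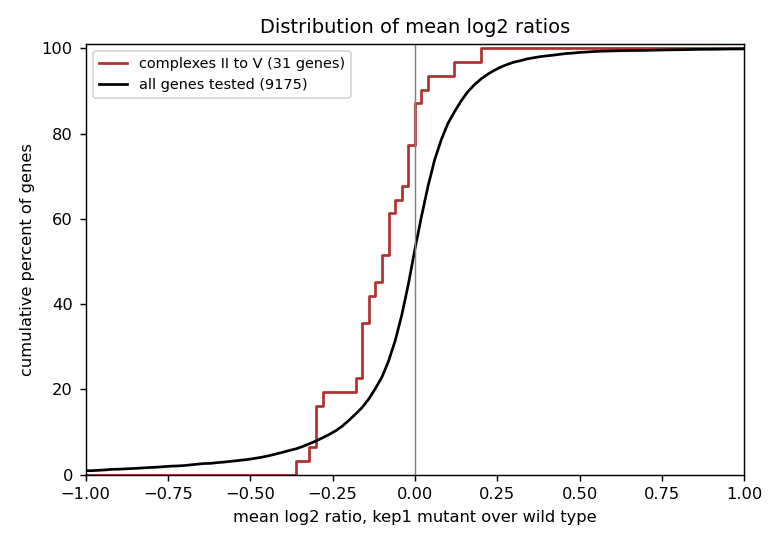
Cumulative percent of genes (vertical axis) at or below a mean log2 ratio of kep1 mutant over wild type (horizontal axis), for the 31 genes of complexes II to V (red) and all 9175 genes tested (black). The red curve lies left of the black one through the middle of the range, with a median of -0.11 against -0.0069. It has neither of the long tails of the black curve, but holds far fewer genes.

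Complex II is both an enzyme of the citric acid cycle and an entry point of the chain. All 4 of its genes had means below 0, with a median of -0.24. SdhD, a membrane anchor subunit, had foreground intensities of 1023.9, 1383.3 and 1219.9 in the mutant and 1084.3, 2101.5 and 1500.0 in wild type on its brighter probe. The mutant channel was thus the lower one on each array before normalization, as was its median over all probes. The log2 ratios were -0.26, -0.37 and -0.28, a mean of -0.30 ± 0.06 (SD, n = 3), or 1.23-fold lower (limma adjusted p = 0.118). The other SdhD probe had ratios of 0.06, 0.29 and -0.06 and exceeded the blank spots in either channel on only 1 array, so the gene rests on 1 well-measured probe.

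SdhB, the iron-sulfur subunit, had the lowest mean of all members and the widest spread. Its ratios were -0.04, -0.94 and -0.15, a mean of -0.38 ± 0.49 (limma adjusted p = 0.481). The low mean came from array 2, where the mutant intensity was 942 against 2177 in wild type. On array 1 the mutant was the brighter channel, at 1306 against 1160.04, and without array 2 the mean was -0.09. SdhA, the flavoprotein with the succinate-binding site, stood at -0.17 ± 0.18, and SdhC, the other membrane anchor, at -0.15 ± 0.17. Both were slightly above 0 on array 2 and below 0 on arrays 1 and 3. The dimmer SdhC probe, at -0.04, did not exceed the blank spots on any array.

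Complex III had a median of -0.03 over 7 genes, which was the value of UQCR-14, a probe above the blank spots in no channel. The median was -0.0893 after plain background subtraction and -0.132 over the 4 genes that passed the stricter filter. Cyt-c1, the heme protein that hands electrons to cytochrome c, had its lowest mean. Its intensities were 3258.6, 4899.5 and 5922.4 in the mutant and 3903.1, 6489.3 and 7268.4 in wild type. The mutant was lower on every array, with log2 ratios of -0.46, -0.19 and -0.26, a mean of -0.30 ± 0.14 (SD, n = 3), or 1.23-fold (limma adjusted p = 0.182). UQCR-Q, a small accessory subunit, was the only other brightly measured gene of the complex below 0 on all arrays, at -0.06, -0.09 and -0.39, a mean of -0.18 ± 0.18 (limma adjusted p = 0.432). Most of its mean came from array 3.

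The core subunits UQCR-C1 and UQCR-C2 did not share a direction across arrays. UQCR-C1 had -0.01, -0.23 and 0.24, a mean of -0.00073 ± 0.24, and UQCR-C2 had 0.21, -0.40 and -0.07, a mean of -0.08 ± 0.31. The small subunit UQCR-6.4, above the blank spots on 2 arrays, stood at -0.02 ± 0.11. The gene ox, an accessory subunit named for the mutant oxen, stood at 0.000099 ± 0.15 and was above the blank spots on 1 array. UQCR-14 stood at -0.03 ± 0.02, but exceeded the blank spots in no channel of any array, so its ratio carries little information. The signs of UQCR-C1, UQCR-C2, UQCR-6.4 and ox changed with the normalization or with an array left out.

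Cyt-c-p, the cytochrome c that carries electrons between complexes III and IV in the body at large, was brightly measured and showed no repeated direction. Its intensities were 6846, 3146 and 3850 in the mutant and 6582, 3189 and 4551 in wild type. The log2 ratios of -0.14, 0.19 and -0.21 gave a mean of -0.06 ± 0.21 (limma adjusted p = 0.847, 95% interval from -0.32 to 0.21). Its mean turned to 0.02 without array 3.

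Complex IV had a median of -0.14 over 8 genes, 6 of them with means below 0 and 5 below 0 on all arrays. All are nuclear subunits that surround the mitochondrially encoded catalytic core, which was not analysed here. levy, the subunit VIa, whose loss is known to cause paralysis in the heat and neurodegeneration in flies, gave the most repeatable ratio. Its intensities were 1408.9, 978.0 and 1035.8 in the mutant and 1546.4, 1383.0 and 1345.3 in wild type. The log2 ratios of -0.33, -0.26 and -0.35 differed little between arrays, with a mean of -0.32 ± 0.05 (SD, n = 3), or 1.24-fold lower, the smallest p among the members (limma adjusted p = 0.108).

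COX8, the subunit VIII, had intensities of 1928.2, 1576.6 and 1306.4 in the mutant and 1995.2, 2002.6 and 1864.6 in wild type. Its log2 ratios of -0.26, -0.12 and -0.48 averaged -0.29 ± 0.18, or 1.22-fold lower (limma adjusted p = 0.244). The ratio on array 3 was the lowest of any complex IV gene on any array. Below 0 on all arrays were also COX5A at -0.15 ± 0.11, COX7C at -0.13 ± 0.13 and COX5B at -0.17 ± 0.13 on its brighter probe. COX5B had ratios of -0.29, -0.04 and -0.19 there, but -0.02, 0.09 and -0.02 on its dimmer probe, which exceeded the blank spots on 1 array. COX4, which carries a regulatory site in mammals, stood at -0.11 ± 0.14.

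The members with the highest means were also in complex IV. COX7A, the subunit VIIa, had intensities of 482.6, 552.2 and 335.1 in the mutant and 434.3, 494.9 and 344.4 in wild type. The mutant channel was thus higher on arrays 1 and 2 and lower on array 3 before normalization. Its normalized ratios were all above 0, at 0.15, 0.36 and 0.05, a mean of 0.19 ± 0.15 (SD, n = 3), or 1.14-fold higher (limma adjusted p = 0.372). The dimmer COX7A probe averaged 0.04 and exceeded the blank spots in no channel of any array. cype, the subunit VIc, averaged 0.10 ± 0.26, with -0.01, 0.40 and -0.08 on arrays 1, 2 and 3, so its mean rested on array 2 and was -0.04 without it.

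**Figure D3:**
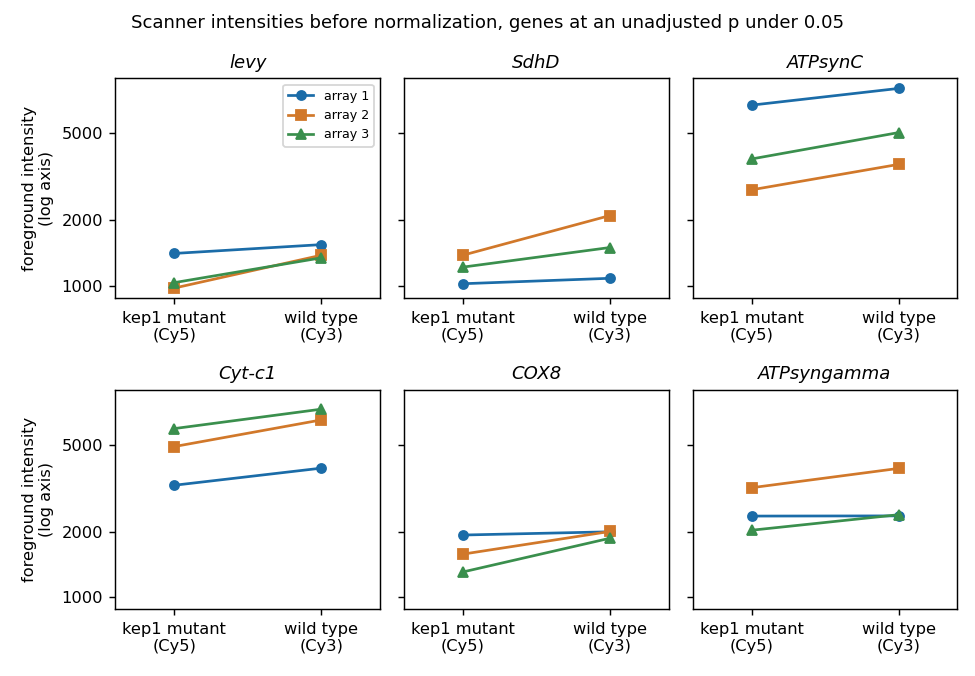
Foreground intensity (log axis, before background correction and normalization) in the kep1 mutant channel, left, and the wild-type channel, right, for the 6 genes at an unadjusted p under 0.05; each line joins the channels of 1 array. The mutant point lies below the wild-type point in every pair, by little for ATPsyngamma on array 1 (2354.9 against 2359.6). The mutant channel was also the dimmer one over all probes, with median foregrounds of 274, 254 and 227 against 291, 307 and 248 on arrays 1, 2 and 3. The order of the points therefore includes this offset between channels.

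Complex V had a median of -0.10 over 11 genes, 10 of them with means below 0 but only 4 below 0 on all arrays. The median was -0.0437 without array 3, -0.0469 with print-tip loess and -0.0420 with the deposited log2 values. In the membrane rotor, ATPsynC, which encodes the c subunit of the proton-carrying ring, had intensities of 6726.9, 2754.8 and 3814.1 in the mutant and 8024.9, 3603.2 and 5038.9 in wild type. Its log2 ratios of -0.44, -0.17 and -0.38 averaged -0.33 ± 0.14 (SD, n = 3), or 1.25-fold lower (limma adjusted p = 0.165). It was the lowest member gene of the complex. ATPsynF, a small membrane subunit, had -0.07, -0.02 and -0.45, a mean of -0.18 ± 0.24 (limma adjusted p = 0.518) that rested on array 3.

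Every other member of the complex, in the membrane part as in the catalytic head and stalks, had a mean nearer to 0 than ATPsynC. The catalytic subunit ATPsynbeta, which was not a member, averaged -0.44. ATPsyngamma, the central stalk that turns with the ring, had intensities of 2354.9, 3174.7 and 2028.2 in the mutant and 2359.6, 3892.3 and 2389.0 in wild type. Its ratios of -0.21, -0.08 and -0.21 averaged -0.16 ± 0.08, or 1.12-fold lower (limma adjusted p = 0.299). Of the other members of the head and central stalk, the alpha subunit gene blw stood at -0.06 ± 0.17, ATPsyndelta, above the blank spots on 1 array, at -0.03 ± 0.08 and sun, the epsilon subunit, at -0.03 ± 0.21. The second sun probe, above the blank spots on 1 array, stood at -0.18 ± 0.13 (limma adjusted p = 0.33).

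Among the peripheral stalk genes, ATPsynO had ratios of 0.05, 0.07 and 0.0012, a mean of 0.04 ± 0.03 (limma adjusted p = 0.79). It was the highest of the complex, but exceeded the blank spots on only 1 array. ATPsynB averaged -0.0049 ± 0.17 and ATPsynD -0.10 ± 0.06, the last below 0 on all arrays. ATPsynE and ATPsynG, of the membrane part, averaged -0.11 ± 0.14 and -0.10 ± 0.15, and the second ATPsynG probe -0.15 ± 0.28. The means of subunits of the same rotor or head thus differed, but no difference between them was tested. Intervals overlapped, for example from -0.53 to -0.13 for ATPsynC and from -0.32 to -0.0091 for ATPsyngamma.

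The arrays differed in how far the members lay below 0. The median over the 31 genes was -0.07, -0.07 and -0.17 on arrays 1, 2 and 3, against -0.0031, -0.01 and -0.0033 over all genes. Below 0 were 23, 21 and 27 of the 31 genes on these arrays, against 4665, 4863 and 4708 of all 9175 genes tested. The lowest ratio of a member gene was on array 3 for 18 genes, on array 1 for 9 and on array 2 for 4. The same split was not taken over all genes. Differences between the complexes were of the same size as those between arrays: complex IV had medians of -0.25, -0.10 and -0.13 and complex V of -0.07, -0.02 and -0.21. Complex II had the steadiest medians, at -0.22, -0.18 and -0.22, but its genes were not steady. On array 2 only 2 of its 4 genes were below 0, and their ratios ran from -0.94 for SdhB to 0.03 for SdhC. Complex III had medians of -0.01, -0.09 and -0.13. No test of a difference between complexes was made, since genes of 1 array are not replicates.

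The direction on array 1 turned under 1 setting. With the deposited log2 ratios, the member median on array 1 was 0.08 once the array's own median was removed, while arrays 2 and 3 stood at -0.09 and -0.19. With each of 5 other background or normalization settings the medians of all 3 arrays were below 0. Over all arrays the member median ran from -0.15 to -0.06 across the alternatives. The probe-level test over all probes called 1 member in 1 of the alternatives: without background subtraction, the dim COX7A probe was called higher, although it exceeded the blank spots in no channel.

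**Figure D4:**
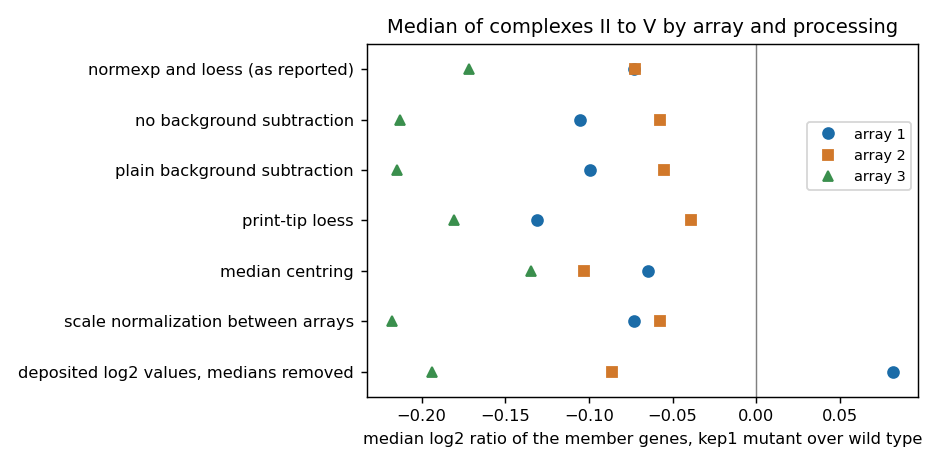
Median log2 ratio of kep1 mutant over wild type over the genes of complexes II to V (horizontal axis) on each array (points), under 7 ways of correcting background and normalizing (rows). Every median lies below 0 apart from array 1 with the deposited log2 values, at 0.08.

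The members were spread over the genome, with 10 genes on chromosome arm 3R, 8 on 2R, 5 each on 2L and 3L and 3 on X. The 31 brightest probes summed to foreground intensities of 57039.7, 61433.1 and 41984.5 in the mutant channel on arrays 1, 2 and 3. The wild-type channel had 56088.5, 75756.1 and 50107.8. Before normalization the mutant sum was thus the higher one on array 1 and the lower one on arrays 2 and 3. Of the 37 probes, 24 exceeded the blank spots in both channels on all arrays. Among the 23 genes whose brightest probe did so, the median was -0.15, against -0.11 for all 31.

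ATPsynbeta, the catalytic subunit of complex V, is encoded on chromosome 4 and was not on the list of members. Its intensities of 14342, 13953 and 11004 in the mutant and 16022, 22047 and 15853 in wild type gave ratios of -0.33, -0.51 and -0.49. The mean of -0.44 ± 0.10 (SD, n = 3; limma adjusted p = 0.0959) lay below that of every member, including its partner blw in the catalytic head at -0.06. The difference between these subunits was not tested.

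Citric acid cycle genes, which include those of pyruvate dehydrogenase here, supply the chain with electrons. They lay lower than the members, with a median of -0.25 over 15 measured genes. At an unadjusted p under 0.05, limma put 7 of 16 probes below 0 and none above it. Of all probes, 9.27% were below and 6.24% above by this rule, and 14.1% were below under the stricter filter. No probe of the cycle list passed the adjusted threshold over all probes. Mdh2, the mitochondrial malate dehydrogenase, had -0.71, -0.52 and -0.96, a mean of -0.73 ± 0.22 (limma adjusted p = 0.0954). The aconitase gene mAcon1 averaged -0.48 ± 0.44, with -0.99 on array 2. The array medians of this list, -0.22, -0.27 and -0.16, followed a different order from those of the members.

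Paralogs of the subunit genes whose symbols add an L, with the second cytochrome c gene Cyt-c-d, had a median of -0.14 over 10 measured genes. By the unadjusted rule 3 of 10 probes were lower and none higher, against 9.27% and 6.24% of all probes. SdhAL averaged -0.41 ± 0.12 (limma adjusted p = 0.107) and COX4L -0.38 ± 0.24 (limma adjusted p = 0.212). Both probes were dim, above the blank spots on 1 array in the mutant channel and on 2 arrays in the wild-type channel. cDNA probes of paralogs can bind each other's transcripts, so the values of similar pairs are uncertain for each gene alone.

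Lists of genes that build or serve the complexes without being part of them had medians nearer to 0. Assembly factors had a median of 0.0082 over 9 measured genes. By the unadjusted rule, 1 of 11 probes was lower and none higher, against 9.27% and 6.24% of all probes. The lower probe was that of Cchl, the lyase that attaches heme to cytochrome c, at -0.29 ± 0.16 (limma adjusted p = 0.214). The complex III factor Bcs1 averaged 0.15 ± 0.10 on its brighter probe. Several assembly factor probes were dim, with those of Surf1, Bcs1 and Sdhaf3 above the blank spots on at most 1 array in either channel. Mitochondrial carriers and pores had a median of -0.02 over 12 genes, with 1 of 13 probes lower and 1 higher by the same rule. Their gene means ran from -0.53 to 0.35, a wider range than that of the members. Of the carriers, colt, a carnitine carrier, averaged 0.35 ± 0.19. The aspartate-glutamate carrier gene aralar1 averaged -0.53 ± 0.57 on its brightest probe, with -0.01, -1.14 and -0.44 on arrays 1, 2 and 3. Its other probe, also above the blank spots in both channels on all arrays, averaged 0.09.

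**Figure D5:**
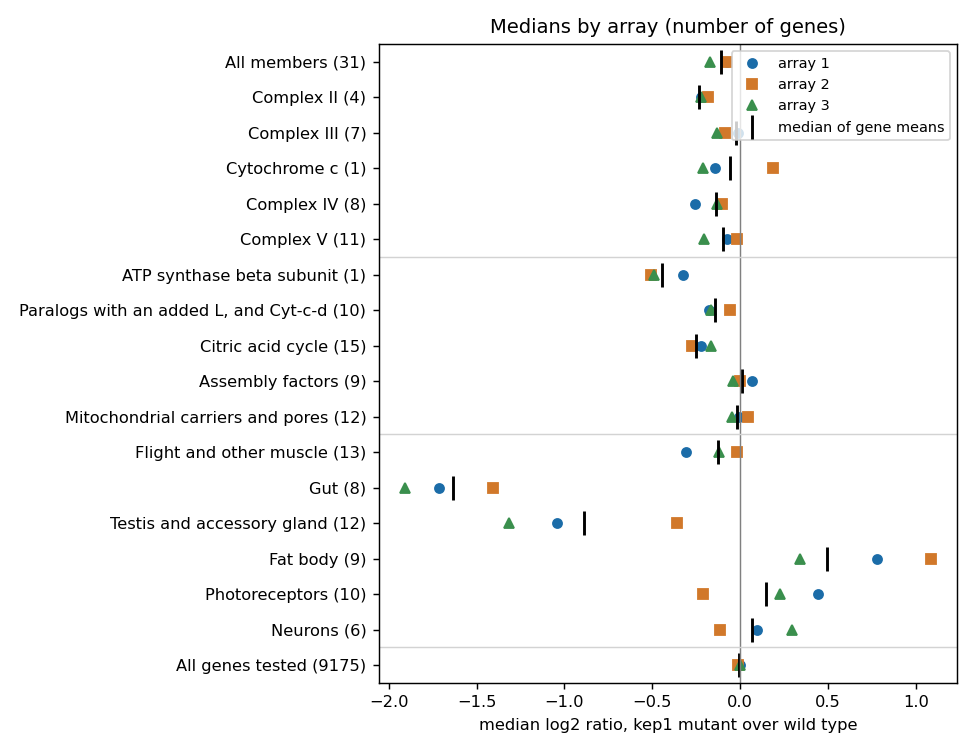
Median log2 ratio of kep1 mutant over wild type (horizontal axis) for the member genes and each complex, for related mitochondrial lists and for markers of cell types, with the number of genes; points are arrays and ticks the medians of gene means. The members stand at -0.11, above the citric acid cycle list at -0.25 and the gut markers at -1.63.

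Ratios of gut and reproductive markers were larger than those of the members. Gut markers had a median of -1.63 over 8 genes, all below 0 on all arrays. In the test over all probes 3 of their 9 probes were called lower, against 0.0766% of all probes. Their summed intensity was 7701.3 to 12313.8 in the mutant and 17656.6 to 32601.2 in wild type, and none was at 0. Testis and accessory gland markers had a median of -0.89 over 12 genes, with array medians of -1.04, -0.36 and -1.31. Their sums were 10201.6 to 17841.2 in the mutant and 21670.9 to 33265.7 in wild type, and only janB, in wild type on array 2, was at 0. The part of gut or reproductive tissue in the member ratios was not tested.

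Muscle markers, whose cells are rich in mitochondria, had a median of -0.12 over 13 genes, with array medians of -0.31, -0.02 and -0.12. By the unadjusted rule 6 of 23 probes were lower and none higher, against 9.27% and 6.24% of all probes. Means were below 0 for 10 of the 13 genes and above 0 for 3. The flight muscle gene fln averaged -1.57 ± 0.55 and TpnC4 -1.14 ± 0.70, while the highest, the giant muscle protein gene bt, was at 0.35 on its brightest probe. That bt probe had -0.17, 0.91 and 0.32 on arrays 1, 2 and 3. Its dimmer probes averaged 0.16, 0.10 and -0.26, and the last was among the 6 lower probes, so the probes of bt disagreed. Summed intensities were 50639.6 to 58130.9 in the mutant and 61638.1 to 66739.9 in wild type, with none at 0. These sums were not normalized, and Act88F alone gave 15661 to 27926 in the mutant and 21602 to 33249 in wild type. Median foreground over all probes was also lower in the mutant channel on each array, at 274, 254 and 227 against 291, 307 and 248. The part of muscle in the member ratios was not tested. Photoreceptor markers stood at a median of 0.15 and array medians of 0.44, -0.21 and 0.23, with sums of 44429.7 to 49910.5 in the mutant and 36537.4 to 59985.0 in wild type. Neuronal markers stood at 0.07, with array medians of 0.09, -0.12 and 0.29 and sums of 10966.3 to 12279.8 in the mutant and 8666.6 to 14854.4 in wild type. Fat body markers stood at 0.49, with array medians of 0.78, 1.09 and 0.34. Their sums were 10711.9 to 20229.9 in the mutant and 8171.4 to 11178.0 in wild type. Means were above 0 for 7 of the 9 genes and below 0 for 2. The highest was Lsp2, a storage protein, at 2.72 ± 0.97, while Yp1 had -2.54, 2.96 and -0.78. No brightest probe of a marker in these lists was at 0, while a dimmer probe of the fat body gene Fbp1 was at 0 in wild type on array 2.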

How the data were processed

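The deposited scanner tables hold foreground, local background and background SD intensities per spot and channel on a linear scale, not normalized, per the file headers. The authors' deposited table of log2 values equalled log2 of channel 2 over channel 1 foreground, without background subtraction or centring, with a largest difference of 5.3e-05 and array medians of -0.08, -0.20 and -0.04. The labels give no dye swap, and the direction of each ratio rests on their channel numbers.

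Each array had 27648 spots. Control (878), blank (1734) and failed (1548) spots got weight 0, and spots marked to be ignored were left out. The other 23488 spots held 11744 probes in duplicate. Names came from CG numbers through a RefSeq gene table (assembly Release 6 plus ISO1 MT) (10479 probes of 9176 genes). Background was corrected by normexp (offset 50), ratios were normalized by loess within arrays, and duplicates were averaged, in limma 3.58.1 under R 4.3.3. Probes with 1 channel above background by 2 SDs on at least 2 arrays were kept (11742). limma tested the mean log2 ratio against 0 (two-sided, empirical Bayes, Benjamini-Hochberg over all probes, threshold 0.05), and 17 probes passed. With 3 arrays and 2.33 prior degrees of freedom, the number of arrays limits precision. Nothing states how the flies were reared or pooled, so p-values measure the spread between these RNA samples. Blank spots had 95th percentiles of 113.2 to 444.5 in the 6 channels. The steps were tested on simulated data.

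Members and lists were chosen with earlier results of these data known. Named with values by array were, per complex, the 2 lowest and the highest genes of 1 sign, all at an unadjusted p under 0.05, and genes whose probes differed in sign or by over 0.3; in other lists, the 2 genes of 1 sign with the largest means. ATPsynbeta, marker genes and the other members were given as values. Alternatives were other background corrections, normalizations, filters and variance models, and leaving out each array. Counting only the brightest probe, and only genes above the blank spots, were chosen after seeing the data.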

Additional observations from a re-analysis of the deposited data

How the results depend on the processing

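The member median kept its sign in all alternatives run, from -0.15 with the stricter filter to -0.06 with the deposited log2 values, and from -0.14 to -0.07 with an array left out. The median of complex II was -0.20 with print-tip loess, -0.15 with the deposited values and -0.14 when the probes of a gene were averaged. That of complex III was -0.0893 with plain subtraction and -0.132 with the stricter filter, and also -0.0605 with the deposited values, -0.0558 without background subtraction, -0.0469 with median centring and -0.0755 to -0.0332 with an array left out, against -0.03. The deposited values gave -0.0754 for complex IV, against -0.14, and -0.0420 for complex V, against -0.10; complex V was at -0.0469 with print-tip loess and at -0.0437 without array 3. Member probes lower at an unadjusted p under 0.05 in limma numbered 1 with plain subtraction and 0 with the deposited values, against 6 in the reported fit, and 3 to 9 with an array left out (3 without array 3). Those higher numbered 1, against 0, without background subtraction, with plain subtraction and with the deposited values. Member probes past the adjusted threshold numbered 1 without background subtraction. Over all probes, 17 passed, against 434 without background subtraction, 390 with plain subtraction, 70 with median centring, 0 with scale normalization (limma; 9.17% below and 6.41% above 0 at an unadjusted p under 0.05), 422 with the deposited values, 381 with the stricter filter, 292 with an intensity trend, 251 at an adjusted p under 0.1, and 0 to 100 with an array left out (0 without array 1 or 3, 100 without array 2; without arrays 1 and 3 in turn, limma put 6.66% and 6.01% of probes below and 4.7% and 4.18% above 0 at an unadjusted p under 0.05). The cause of these shifts was not tested.

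Of the 31 genes, 20 kept their sign in all of their own values under the alternatives and 11 did not. The alternatives gave 365 values over the 31 genes, and 32 of these had the sign reversed. With the deposited values the sign turned for ATPsynB (0.0864), ATPsynG (0.0021), ATPsynO (-0.0420), Cyt-c-p (0.0342), UQCR-C1 (0.0859), UQCR-C2 (0.0133), ox (-0.0667) and sun (0.0533). Print-tip loess turned ATPsynO (-0.0058), cype (-0.10) and sun (0.0230), and median centring turned ATPsynO (-0.0058), UQCR-C1 (0.0046) and ox (-0.0400). No background subtraction turned UQCR-C1 (0.0026) and ox (-0.0354), plain subtraction UQCR-C1 (0.0041) and ox (-0.0946), and scale normalization UQCR-C1 (0.0372) and ox (-0.0207). With an array left out, the range crossed 0 for ATPsynB (-0.105 to 0.0499), Cyt-c-p (-0.177 to 0.0217), UQCR-6.4 (-0.0720 to 0.0424), UQCR-C1 (-0.122 to 0.115), UQCR-C2 (-0.235 to 0.0734), blw (-0.142 to 0.0304), cype (-0.0446 to 0.194), ox (-0.0483 to 0.0860) and sun (-0.128 to 0.0788). The reported test is itself paired, since each ratio sets mutant against wild type within an array. Across arrays, no paired analysis was possible because the ratios form a single group. Signal limits the dim probes: 13 of the 37 did not exceed the blank spots in both channels on all arrays.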
